A study of Homo sapiens with 8 samples.

Results

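Cystatins, which are protease inhibitors, and cathepsins, proteases of the lysosome, were followed in MOLM-13 cells after knockdown (KD) of the splicing regulator PTBP1. The set holds 10 genes of the 62639 that have a row in the count table. They are CST3, CSTB, CTSA, CTSB, CTSC, CTSD, CTSH, CTSS, CTSZ and LGMN. The set was chosen on the measured fall of CST3 between these same libraries, so the CST3 gene level is given below as a description without a test. The fold changes of the other members come from the same contrast, and nothing is read from how many of them were called.

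The MOLM-13 line was derived from human acute myeloid leukemia (AML). All cells carried a lentiviral construct with constitutive mCherry and, under a doxycycline (dox)-inducible promoter, an shRNA together with the ΔLNGFR receptor. The shPTBP1 group (4 libraries) expressed 1 shRNA against PTBP1, and the shControl group (4 libraries) 1 scrambled shRNA, which the study names shSCR. Both groups received dox for 9 days, and total RNA was read as full-length cDNA on a nanopore instrument. With 1 shRNA per group, other differences between the transduced cells cannot be told apart from the loss of PTBP1. Since whole cultures were measured, fewer cells of a type and less RNA per cell cannot be told apart either. The labels name the libraries biological replicates without saying how the cultures were separated, so p-values measure the spread between these libraries.

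Cathepsins are proteases that break down proteins in lysosomes, and in myeloid cells also activate granule proteases and trim peptides for antigen presentation. Most carry a cysteine in the active site. Cystatins are small proteins that block cysteine cathepsins by inserting a short loop into that site. Cystatin C (CST3) is secreted and is expressed strongly in monocytes and dendritic cells, while cystatin B (CSTB) stays in the cytosol and nucleus.

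The sequences behind this pairing of inhibitor and protease are shown for the cystatin CST3 and the cathepsins CTSC, CTSH and CTSS. Each is a stretch of 30 coding bases from GENCODE version 44 on GRCh38, read 5′ to 3′ on the transcript, which lies on the minus strand in all 4 genes. Capitals mark the codons of the inhibitory loop in the cystatin and the codon of the active-site cysteine in the cathepsins.

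CST3-201: cgcaagCAGATCGTAGCTGGGgtgaactac

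CTSC-201: tcctgtggcagcTGCtactcatttgcttct

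CTSH-201: gcctgcggcagtTGCtggactttctccacc

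CTSS-201: tcttgtggtgctTGCtgggctttcagtgct

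The CST3 stretch spans the junction of exons 1 and 2 (chr20:23635347-23637628). The CTSC and CTSH stretches lie in exon 6 of their genes (chr11:88296233-88296262 and chr15:78932426-78932455), and the CTSS stretch in exon 5 (chr1:150751976-150752005). Among the cathepsins, CTSC and CTSH share 18, CTSH and CTSS 18, and CTSC and CTSS 17 of 30 bases. The encoded proteins have 146 residues for CST3-201, 463 for CTSC-201, 335 for CTSH-201 and 331 for CTSS-201.

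The libraries held between 1528449 and 1613342 counts, so that 1 count corresponds to 0.62 to 0.654 counts per 1000000 counts of the library (CPM). Gene levels below are CPM after TMM normalization (edgeR), given as mean ± SD with n = 4 libraries per group unless stated otherwise. Of 7597 genes tested with edgeR's quasi-likelihood test, 242 (3.19%) were called lower and 179 (2.36%) higher in shPTBP1 at a Benjamini-Hochberg adjusted p under 0.05. The targeted gene PTBP1 stood at 9.76 ± 3.51 normalized CPM in shPTBP1 and 46.9 ± 7.73 in shControl, with no overlap of the groups and a log2 fold change of -2.26 (SE 0.22). Of 12 myeloid markers 8 were tested and none was called by edgeR, 3 having an unadjusted p under 0.05. Their summed level was 757 to 855 normalized CPM in shPTBP1 and 697 to 750 in shControl. The median log2 fold change of the 8 tested was 0.0052, so the higher sum does not describe them as a set. The smallest p-values of that list belonged to LYZ, at 341 ± 59.8 against 270 ± 25.2 (adjusted p = 0.103), and CD33, at 85.3 ± 10.6 against 71.3 ± 3.83 (adjusted p = 0.187). The myeloid markers CD14 and SPI1 had 1 count each in shPTBP1 and 0 in shControl. Whether their reads were lost before counting cannot be seen from these tables, so the low counts are not read as low expression. Markers of T cells were at 0 in every library, and those of B, erythroid and megakaryocytic cells summed to at most 2.51 CPM. The fibroblast markers summed to at most 14.4 CPM in shPTBP1 and 10.9 in shControl. The part of these markers in the results below was not tested.

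The members differed widely in abundance. Levels are compared here as CPM per kilobase of transcript. If each read stands for a whole molecule, dividing by length favours short transcripts, so the order depends on this scale. On it CSTB was the highest of the 10 genes in shControl with 799 ± 35.6. It was followed by CTSB with 161 ± 7.20, CTSC with 130 ± 8.41, CTSD with 88.9 ± 13.0, CST3 with 58.4 ± 31.6, CTSH with 57.8 ± 2.75, CTSA with 36.4 ± 6.60 and CTSS with 21.2 ± 2.54. LGMN and CTSZ came last, at 0.80 ± 0.60 and 0.39 ± 0.58. The library range of CST3 overlapped those of CTSD, CTSH and CTSA, and that of LGMN overlapped that of CTSZ, so the order within these pairs is not resolved. In shPTBP1 the CST3 level was 11.4 ± 4.30 CPM per kilobase, below that of CTSS with 21.2 ± 2.50. In normalized CPM, without division by length, CST3 had the lowest mean of the tested members in shControl too. Its libraries there overlapped those of CTSS, and CSTB was again the highest. All 10 members together took 0.141 to 0.151% of the counts of a shControl library and 0.127 to 0.132% of a shPTBP1 library.

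**Figure D1:**
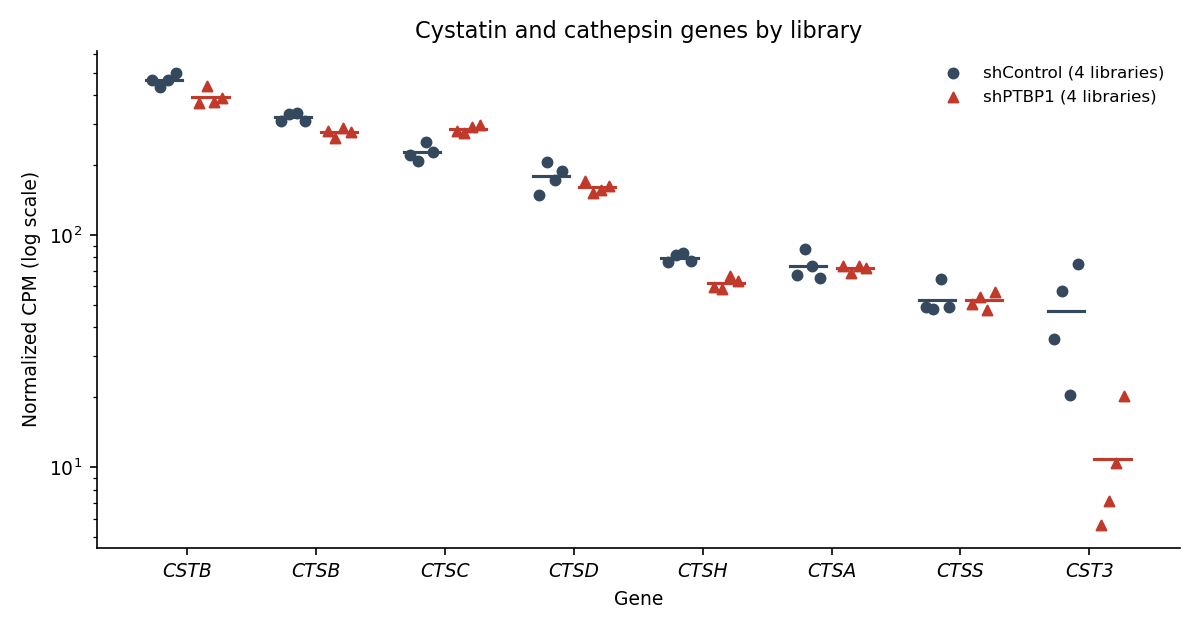
Normalized CPM (log axis) of the 8 tested members in each of the 4 shControl (circles) and 4 shPTBP1 (triangles) libraries, with lines at the group means. CST3 has the widest distance between the group means on this axis and the widest spread within a group. Its libraries run from 5.63 to 20.2 in shPTBP1 and from 20.4 to 74.8 in shControl, so the groups nearly touch. The libraries of CSTB, CTSA, CTSD and CTSS overlap between the groups.

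Cystatin C (CST3, ENSG00000101439, chr20:23626706-23638473, minus strand) was the member with the lowest level relative to control. In the shControl libraries it had 59, 91, 31 and 118 counts, and in the shPTBP1 libraries 9, 11, 16 and 32. After normalization these were 35.7, 57.2, 20.4 and 74.8 CPM against 5.63, 7.18, 10.4 and 20.2 CPM. The groups did not overlap, but the gap between the highest shPTBP1 library (replicate 4) and the lowest shControl library (replicate 3) was small against the spread inside each group. The mean was 47.0 ± 23.9 in shControl and 10.9 ± 6.56 in shPTBP1, 23.1% of control or 4.33-fold lower. The fitted log2 fold change was -2.11 (SE 0.41). It lay between -2.60 and -1.79 when each library was left out in turn.

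The control libraries differed in CST3 far more than counting alone would give. The coefficient of variation was 50.7% in shControl and 60.4% in shPTBP1, where Poisson counting at these means gives 11.6% and 24.3%. Summed over libraries, 68 counts in shPTBP1 against 299 in shControl make a ratio of 0.224 after correction for depth. Taken per 100 counts of CSTB in the same library, CST3 had 7.67, 13.3, 4.40 and 15.1 counts in shControl and 1.52, 1.64, 2.79 and 5.20 in shPTBP1. On that ratio within a library the groups overlapped, since shPTBP1 replicate 4 with 5.20 lay above shControl replicate 3 with 4.40. This overlap has 2 limits. In shPTBP1 replicate 4, 14 of the CST3 counts came from a second isoform, CST3-203 (described below), and 18 from CST3-201. The mean of CSTB in shPTBP1 was 84.6% of control, which by itself raises the ratio there.

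Part of the CST3 count came from a second isoform that was seen in only 2 libraries. CST3-201, the 3-exon transcript of 793 bases, held every CST3 count in 6 libraries. CST3-203, which has 4 exons and 3286 bases, had 14 counts in shPTBP1 replicate 4 and 12 in shControl replicate 1, and 0 in the 6 others. Both isoforms are annotated as protein coding. CST3-203 ends exon 3 after 86 bases, where CST3-201 runs on to 343, then skips an intron of 4448 bases and ends in an exon of 2760 bases that starts 4192 bases past the end of CST3-201. Without CST3-203 the normalized CPM was 28.5, 57.2, 20.4 and 74.8 in shControl and 5.63, 7.18, 10.4 and 11.4 in shPTBP1. The means became 45.2 ± 25.3 and 8.65 ± 2.70, or 19.1% of control, and the SD of shPTBP1 was the value that shrank. CST3-201 made up 94.9 ± 10.2% of CST3 counts in shControl and 89.1 ± 21.9% in shPTBP1. An exact two-sided permutation test of the 2 groups of n = 4 gave p = 1.0. With equal shares in 6 libraries and the 2 others in opposite groups, that test could not give a lower p. Nothing about isoform use is read from it. The related secreted cystatins CST1, CST2 and CST4, which lie in the same family as CST3, were at 0 in all libraries.

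**Figure D2:**
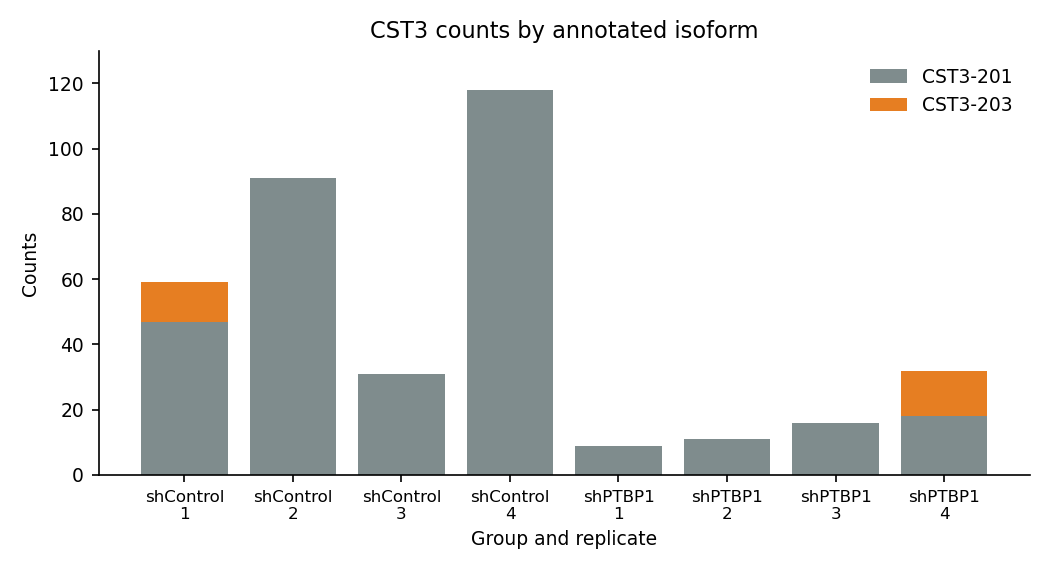
CST3 counts in each library (bars start at 0), split into CST3-201 (grey) and CST3-203 (orange). The shControl libraries hold 31 to 118 counts and the shPTBP1 libraries 9 to 32, and CST3-203 appears in shControl replicate 1 (12 counts) and shPTBP1 replicate 4 (14 counts) alone.

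Cystatin B (CSTB, ENSG00000160213, chr21:43772511-43776330, minus strand) was far more abundant and differed far less. Its normalized CPM was 466, 431, 464 and 496 in shControl and 371, 438, 373 and 389 in shPTBP1. The shPTBP1 replicate 2 library lay inside the range of the control libraries, and the other 3 lay below all of them. The means were 464 ± 26.5 and 393 ± 31.2, with a log2 fold change of -0.24 (SE 0.07) and an edgeR adjusted p of 0.0656 that missed the threshold. It passed without shPTBP1 replicate 2 (adjusted p = 0.0433) and under DESeq2 (adjusted p = 0.0457). The threshold was passed in 1 of the 8 fits that leave out a library and in 4 of 11 other alternatives. Practically all CSTB counts fell on CSTB-201, a 3-exon transcript of 588 bases.

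Among the cysteine cathepsins, CTSC and CTSH moved in opposite directions. Cathepsin C (CTSC, ENSG00000109861, chr11:88265069-88359684, minus strand) removes dipeptides and activates the serine proteases of myeloid granules. Its level was 220, 207, 252 and 227 normalized CPM in shControl and 281, 274, 293 and 298 in shPTBP1. Every shPTBP1 library was above every shControl library. The mean rose from 226 ± 18.6 to 286 ± 10.98, a log2 fold change of 0.34 (SE 0.07) with an edgeR adjusted p of 0.0166. The call was kept in 6 of the 8 fits that leave out 1 library, and was lost without shPTBP1 replicate 3 (adjusted p = 0.0570) and without shPTBP1 replicate 4 (adjusted p = 0.0538).

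Cathepsin H (CTSH, ENSG00000103811, chr15:78921058-78949574, minus strand) is an aminopeptidase of the lysosome. It had 76.3, 82.4, 83.7 and 77.3 normalized CPM in shControl and 59.4, 58.8, 66.4 and 63.2 in shPTBP1. The groups were again apart, with a spread inside each that was small against the gap. The mean fell from 79.9 ± 3.64 to 61.9 ± 3.55, a log2 fold change of -0.37 (SE 0.09) with an edgeR adjusted p of 0.0317. This call is a close one. It held in 1 of the 8 fits that leave out a library, without shControl replicate 1 (adjusted p = 0.0478), and the adjusted p reached 0.0894 in the 7 others. It was lost under DESeq2 (adjusted p = 0.151), without the filter on low counts (0.0728), with a replicate block (0.0618) and when the most abundant isoform of each gene was counted alone (0.111).

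Cathepsin B (CTSB, ENSG00000164733, chr8:11842524-11869533, minus strand), an abundant endopeptidase, had 310, 333, 334 and 311 normalized CPM in shControl and 281, 260, 288 and 279 in shPTBP1. The groups did not overlap. The means were 322 ± 13.4 and 277 ± 11.9, with a log2 fold change of -0.22 (SE 0.06), and the edgeR adjusted p of 0.0655 missed the threshold. It passed when genes with a mean under 50 counts were left out (0.0179) and in limma-trend on log2(CPM + 1) (0.0393). The threshold was missed under DESeq2 (adjusted p = 0.115). It was passed in 0 of the 8 fits that leave out a library and in 3 of 11 other alternatives.

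Cathepsin S (CTSS, ENSG00000163131, chr1:150730079-150765957, minus strand), which trims the invariant chain in antigen-presenting cells, had overlapping groups with nearly equal means. It had 49.1, 47.8, 64.6 and 48.8 normalized CPM in shControl and 50.6, 54.2, 47.5 and 56.9 in shPTBP1. The shControl replicate 3 library stood above the 7 others. The means were 52.6 ± 8.03 and 52.3 ± 4.10, with a log2 fold change of -0.01 (SE 0.12) and an edgeR adjusted p of 0.988. Cathepsin Z (CTSZ, ENSG00000101160, chr20:58985686-59008238, minus strand) was barely seen. It had 1, 0, 0 and 3 counts in shControl and 0, 0, 2 and 0 in shPTBP1, too few to be tested, and a count of 0 allows up to 3 counts in a library, for counting error only. NELFCD, on the other strand, overlaps CTSZ by 9448 bases and had 112 counts in shControl and 96 in shPTBP1. Whether reads of CTSZ were lost before counting cannot be seen from the counts, so its low count is not read as a low level.

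None of the remaining members, which are not cysteine cathepsins, was called. Cathepsin D (CTSD, ENSG00000117984, chr11:1752752-1764573, minus strand) is the main aspartic protease of the lysosome. It had 149, 206, 173 and 188 normalized CPM in shControl and 170, 152, 156 and 163 in shPTBP1. The control libraries spanned the whole range of the knockdown libraries. The means were 179 ± 24.0 and 160 ± 7.90, with a log2 fold change of -0.16 (SE 0.09) and an edgeR adjusted p of 0.394. A protein-coding gene without a symbol, ENSG00000250644, overlaps CTSD on the same strand and had 54 counts in shControl and 35 in shPTBP1, so the division of reads between the pair is uncertain.

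Cathepsin A (CTSA, ENSG00000064601, chr20:45890144-45898949, plus strand) is a serine carboxypeptidase that also protects other lysosomal enzymes. It had 67.2, 87.4, 73.8 and 65.3 normalized CPM in shControl and 73.8, 68.6, 73.5 and 72.1 in shPTBP1. The means were 73.4 ± 9.99 and 72.0 ± 2.41, with a log2 fold change of -0.03 (SE 0.11) and an edgeR adjusted p of 0.923. Legumain (LGMN, ENSG00000100600, chr14:92703807-92748679, minus strand), a cysteine protease that cuts after asparagine and processes several cathepsins, had 3, 1, 1 and 5 counts in shControl and 3, 3, 1 and 7 in shPTBP1. With 10 against 14 counts the ratio was 1.38, with a 95% interval for counting error of 0.571 to 3.48, and a difference was not detectable at this depth.

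**Figure D3:**
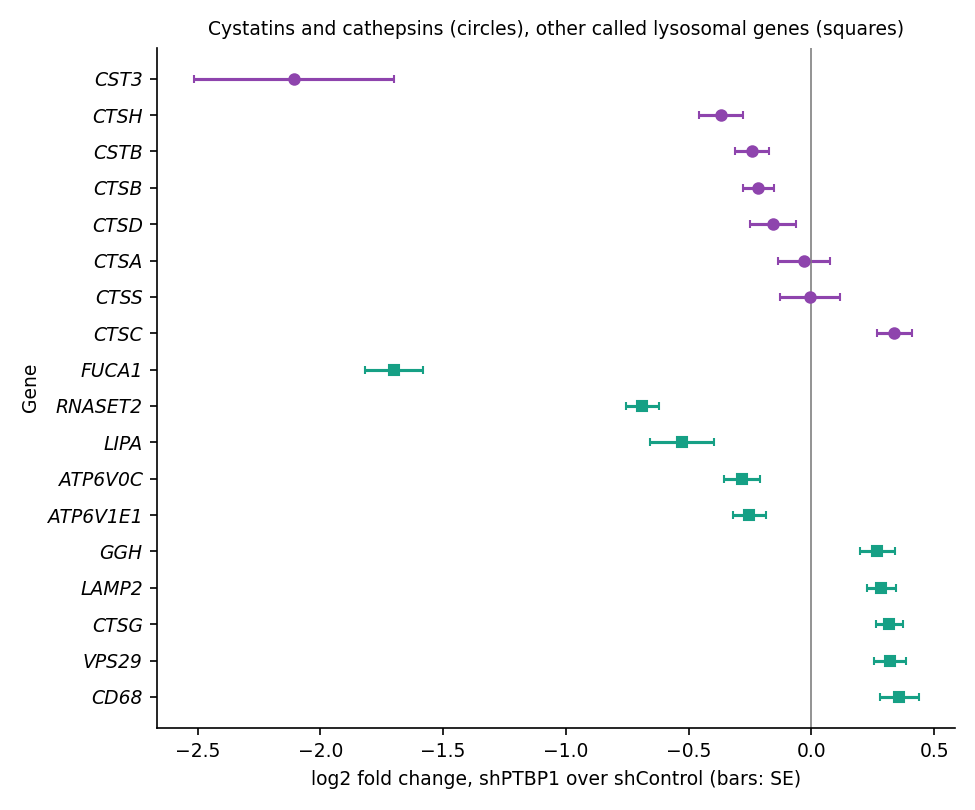
Log2 fold change of shPTBP1 over shControl with its SE (edgeR, 4 against 4 libraries) for the 8 tested cystatins and cathepsins (circles) and for the called genes of 4 other lysosomal lists (squares). CST3 lies at -2.11, and the 7 other circles lie between -0.37 and 0.34.

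Of the 8 tested members, 4 had libraries that were fully apart between the groups (CST3, CTSB, CTSC and CTSH), where 12.7% of all genes tested were apart in this way. Beside CST3, 1 member was called lower and 1 higher, with 3.19% and 2.36% over all genes. The median log2 fold change of the 8 members was -0.19, against -0.00014 over all genes tested. Since the fall of CST3 in this contrast chose the set, these counts describe it and support nothing about it.

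No isoform of a member was called as used differently between the groups. GENCODE lists 293 isoforms for the 10 genes, of which 113 had a count in some library and, CTSZ left aside for its 6 counts in all, 14 held at least 10% of their gene's counts in a group. None of the 11 member isoforms that could be tested with edgeR's diffSpliceDGE was called, none had an unadjusted p under 0.05, and the smallest unadjusted p was 0.424. Over all genes the test called 61 of 5464 isoforms (1.12%). With limma's diffSplice no member isoform was called either (smallest unadjusted p = 0.219). Exact two-sided permutation tests of 13 single shares, which were not adjusted, ranged from p = 0.0286, the smallest that 4 against 4 libraries allow, to p = 1.0. The CST3 shares were equal in most libraries and could not reach a small p.

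The smallest of these belonged to CTSC-201, the main transcript of the gene that was higher in shPTBP1. Its share of CTSC counts was 86.0%, 82.7%, 87.7% and 86.3% in shControl and 88.9%, 89.3%, 88.7% and 88.3% in shPTBP1. The shares were apart, by a small step from 85.7 ± 2.10% to 88.8 ± 0.393%. CTSB-204 held 89.0 ± 0.905% of CTSB counts in shControl and 89.6 ± 1.08% in shPTBP1, and CTSD-201 held 95.6 ± 1.32% and 95.1 ± 1.67% of CTSD counts.

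CTSH and CTSS stood out by the isoforms that carried their counts. Isoforms annotated as targets of nonsense-mediated decay held 62.1% of the summed CTSH counts in shControl and 65.4% in shPTBP1, and 36.7% and 40.1% of the CTSS counts. For CTSH this was mainly CTSH-202, with 58.7 ± 3.89% in shControl and 59.6 ± 1.54% in shPTBP1. CTSH-202 differs from CTSH-201 in where exon 2 begins, so that the exon has 27 rather than 32 bases. CTSH-201 also has 156 rather than 115 bases in exon 1 and ends 713 bases further on. The acceptor is shown as 20 intron bases followed by exon 2 of CTSH-201 (chr15:78939140-78939191, GRCh38, minus strand), with the 5 bases that CTSH-202 lacks in capitals.

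CTSH exon 2 acceptor: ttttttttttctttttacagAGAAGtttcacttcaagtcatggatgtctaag

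In exon 2 these 5 bases alone tell the isoforms apart. How reliably reads were assigned between CTSH-202 and CTSH-201 was not tested. The decay-annotated share of CTSH therefore describes the assigned counts, and the share of its RNA that is a decay target is not known. CTSH-236, which has a 199-base exon of its own at the start, held 29.7 ± 4.67% of CTSH counts in shControl and 27.0 ± 3.56% in shPTBP1. For CTSS, the coding CTSS-201 held 57.2 ± 7.17% in shControl and 51.4 ± 12.2% in shPTBP1. The decay-annotated CTSS-203 held 19.2 ± 5.47% and 22.5 ± 5.43%, and CTSS-206 11.9 ± 4.41% and 13.2 ± 5.34%. CTSS-203 removes 1780 bases within the last exon of CTSS-201. In none of these isoforms did the groups separate.

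CTSA counts were carried by a pair of coding isoforms that differ at the start. CTSA-220, with 45 bases in exon 1, held 62.9 ± 4.55% in shControl and 62.7 ± 2.88% in shPTBP1. CTSA-204, with 1126 bases in exon 1, held 24.5 ± 3.10% and 26.7 ± 1.43%. The gene NEURL2 on the other strand overlaps CTSA by 1065 bases and had 3 counts in shControl and 6 in shPTBP1. PLTP, also on the other strand, overlaps CTSA by 329 bases and had 205 counts in shControl and 229 in shPTBP1. Whether the counting used strand is not given in the sources used here.

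**Figure D4:**
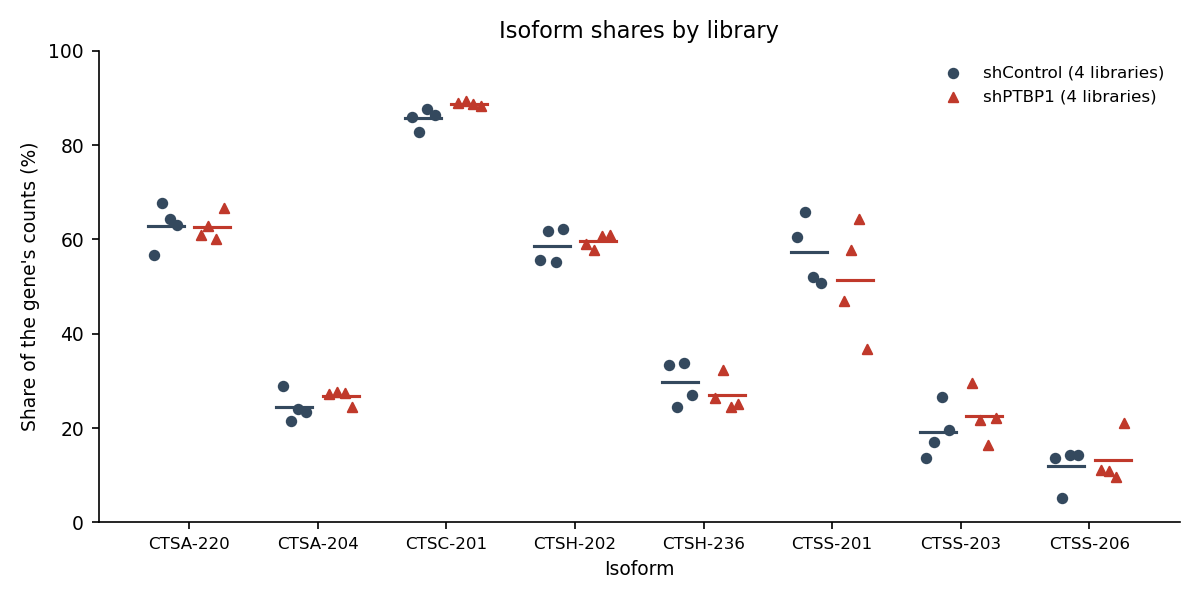
Share of a gene's counts (%, axis from 0 to 100) on 8 isoforms of CTSA, CTSC, CTSH and CTSS in each shControl (circles) and shPTBP1 (triangles) library, with lines at the means. The groups overlap for every isoform drawn except CTSC-201, which lies at 82.7 to 87.7% in shControl and 88.3 to 89.3% in shPTBP1.

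The variation of CST3 between libraries was compared with that of other genes after the group means were removed. Over the 8 libraries and among 3681 genes with a mean of at least 50 counts, log2 CPM of SLC39A3 was most like CST3 (Pearson r = 0.964). It was followed by ANP32B (0.950), SCYL2 (0.949), CWC15 (0.947) and MKRN1 (0.939). These are the highest of many values over few points that share library depth and preparation. For the other members r was 0.371 for CTSD, 0.105 for CTSH, 0.0146 for CSTB, 0.000727 for CTSA, -0.104 for CTSB, -0.229 for CTSC and -0.400 for CTSS, so none of them followed the spread of CST3 closely.

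Other genes of the lysosome were taken from 4 lists of 142 genes, of which 109 were tested, 5 were called lower (4.59%), 5 higher (4.59%) and 17 had groups that did not overlap. The shares over all genes were 3.19%, 2.36% and 12.7%, and the median log2 fold change of the 109 was -0.03. Of 23 other cystatins, cathepsins and cathepsin inhibitors 8 were tested, none was called lower and 1 was called higher, with a median of 0.07. The called gene was CTSG, a serine protease of azurophil granules that CTSC activates. CTSG rose from 2684 ± 170 to 3346 ± 88.1 normalized CPM, a log2 fold change of 0.32 (SE 0.05) with an edgeR adjusted p of 0.00486, and kept its call when any 1 library was left out. Its levels were 2566, 2657, 2932 and 2581 in shControl and 3224, 3429, 3382 and 3350 in shPTBP1, with all libraries of shPTBP1 above those of shControl.

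Of 46 other lysosomal enzymes and their activators 39 were tested, 3 were called lower and 1 higher, with a median log2 fold change of -0.07. FUCA1, which removes fucose from glycoproteins, was the lowest of these relative to control. It had 105, 125, 107 and 123 normalized CPM in shControl and 36.9, 27.4, 39.0 and 37.9 in shPTBP1. Its mean fell from 115 ± 10.05 to 35.3 ± 5.34, a log2 fold change of -1.70 (SE 0.12) with an edgeR adjusted p of 3.71e-06.

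RNASET2, a lysosomal ribonuclease, fell from 1261 ± 116 to 783 ± 9.41 normalized CPM (log2 fold change -0.69, SE 0.07, edgeR adjusted p = 6.46e-05). FUCA1 and RNASET2 were called in all 8 fits with 1 library left out. LIPA, the lysosomal acid lipase, fell from 89.1 ± 15.9 to 61.8 ± 5.89 (log2 fold change -0.53, SE 0.13, edgeR adjusted p = 0.0308) and was called in 2 of the 8, without shControl replicate 1 or 2, with an adjusted p of up to 0.0917 in the others. GGH, which shortens folate polyglutamates, rose from 241 ± 13.2 to 290 ± 18.7 (log2 fold change 0.27, SE 0.07, edgeR adjusted p = 0.0426) and was called in 1 of the 8, without shPTBP1 replicate 1, with an adjusted p of up to 0.131 in the others.

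Of 35 genes of the lysosomal membrane and its proton pump 31 were tested, with 2 called lower, 2 called higher, 9 apart and a median log2 fold change of -0.02. The membrane glycoproteins LAMP2 and CD68 were higher, LAMP2 with 535 ± 20.6 against 439 ± 23.3 normalized CPM (edgeR adjusted p = 0.0168) and CD68 with 420 ± 19.8 against 328 ± 35.6 (edgeR adjusted p = 0.0194). Each was called in 5 of the 8 fits with 1 library left out. LAMP2 lost its call without shPTBP1 replicate 3 or 4 or shControl replicate 4 (adjusted p up to 0.0583), and CD68 without shPTBP1 replicate 2 or 4 or shControl replicate 4 (adjusted p up to 0.0672). The proton pump subunits ATP6V0C and ATP6V1E1 were lower, ATP6V0C with 145 ± 8.03 against 176 ± 8.26 (edgeR adjusted p = 0.0371) and ATP6V1E1 with 210 ± 5.03 against 250.3 ± 15.03 (edgeR adjusted p = 0.0430). ATP6V0C was called in 0 of the 8 fits (adjusted p up to 0.0987) and ATP6V1E1 in 1, without shControl replicate 2 (up to 0.110 in the others). Of 38 genes of lysosomal sorting and biogenesis 31 were tested and 1 was called, the retromer subunit VPS29, which was higher with 257 ± 11.9 against 205 ± 7.63 (log2 fold change 0.32, SE 0.07, edgeR adjusted p = 0.0134). It lost its call in 1 of the 8 fits, without shPTBP1 replicate 3 (adjusted p = 0.0512). No gene of the 4 lists had a called isoform.

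**Figure D5:**
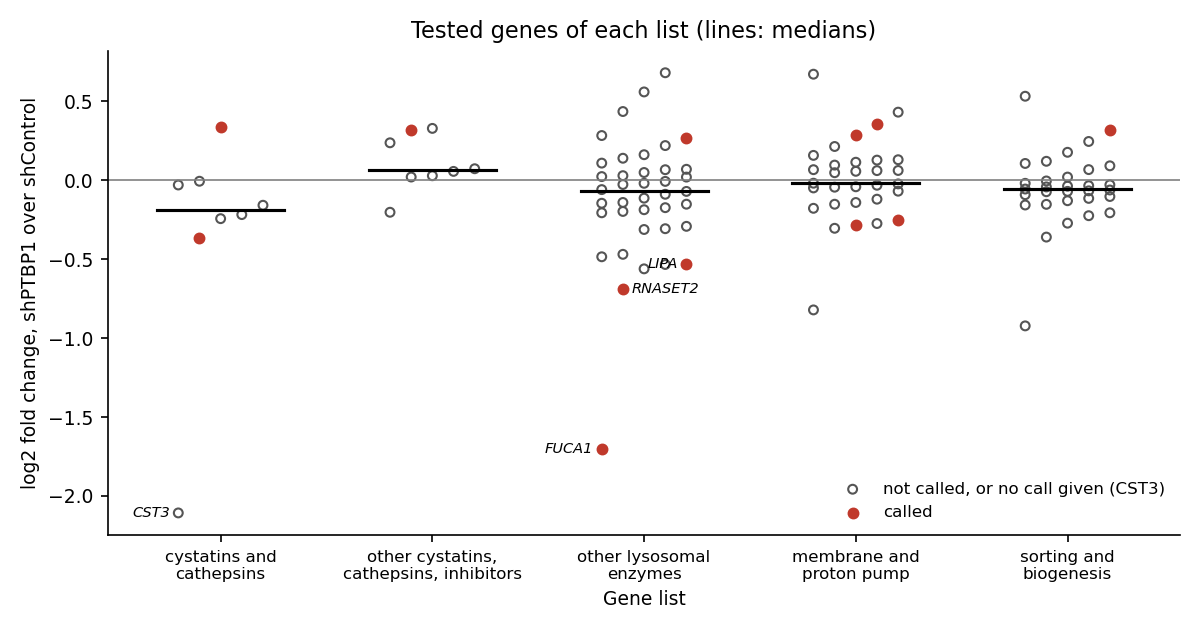
Log2 fold change of shPTBP1 over shControl for every tested gene of the cystatin and cathepsin set and of 4 other lysosomal lists, with filled points for genes called by edgeR, open points for the others and for CST3, and lines at the medians. Points lie mostly near 0, with CST3 at -2.11 and FUCA1 at -1.70 far below the rest of their lists.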

How the data were processed

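The authors aligned nanopore cDNA reads to hg38 with minimap2, removed those of low mapping quality, and deposited whole-number transcript counts from StringTie. Its version and annotation are not given in the sources used here. The second table, deposited under the name TPM, holds CPM values, each transcript count divided by its library total (checked to within 1e-06). Every column matched a sample's labels.

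Genes were summed from transcripts by GENCODE version 44 (GRCh38), which held 252562 of 254070 transcripts; the 1508 others held 0.0876 to 0.115% of a library. Gene counts were normalized by TMM, filtered by filterByExpr (minimum count 10) and compared in edgeR 4.0.16 by quasi-likelihood, with no covariate beside the group. An isoform was called by diffSpliceDGE if its share moved by 10 or more percentage points and its adjusted p lay under 0.05. CPM per kilobase was the sum over isoforms of CPM divided by isoform length. Alternatives were DESeq2 1.42.0, limma 3.58.1 (voom, trend on log2(CPM + 1) and log2(CPM + 0.5)), DESeq2 size factors, no filter, a mean of at least 50 counts, a replicate block, thinning to the smallest library, leaving out each library and, added after the data were seen, counting the most abundant isoform only and leaving out 191 transcripts seen in at most 2 libraries. Replicate numbers did not pair the libraries (correlation of same-numbered deviations -0.0327 to 0.00891). The variance between libraries of a group was 2.12 to 3.94 times that of counting error (chi-square per degree of freedom), so none is a copy. The tests were tried on simulated data.

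The members, gene lists and tests were chosen with earlier results of these data known. 1 gene first listed among the lysosomal enzymes is not reported here. Named are all members, PTBP1, isoforms with at least 10% of a gene's counts, the called genes of each list or otherwise its 2 with the smallest p, and the 5 genes most like CST3. R 4.3.3 and Python 3.11.15 were used.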

Additional observations from a re-analysis of the deposited data

Results flagged for a closer look

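Single libraries that stood apart from the other 3 of their group by Dixon's criterion are listed here. It was applied to 50 groups of 4 values, of which 12 stood apart, and chance alone gives about 1 in 20. Shares of an isoform that add up to a whole are not independent, and groups with 3 equal values pass whenever the other library differs at all.

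CST3 accounts for 6 of the 12. CST3-203 had 14 counts in shPTBP1 replicate 4 and 12 in shControl replicate 1, against 0 in the others. Its share of CST3 was therefore 43.8% and 20.3%, and that of CST3-201 was 56.2% and 79.7%, where the others were at 0% and 100%.

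CTSS had 64.6 normalized CPM in shControl replicate 3, against 47.8 to 49.1 in the others. CTSS-206 held 21.1% of CTSS in shPTBP1 replicate 4 (others 9.59 to 11.1%) and 5.26% in shControl replicate 2 (others 13.6 to 14.3%). CTSA-204 held 24.6% of CTSA in shPTBP1 replicate 4, against 27.1 to 27.6%. CTSB and CTSC had no such library. CSTB-201 held 99.8% of CSTB in shPTBP1 replicate 1, against 100% in the others. CTSZ had 1.30 normalized CPM in shPTBP1 replicate 3, against 0 in the others, which is under the limit of 3 counts.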

How the results depend on the processing

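CST3 was lower in shPTBP1 under every alternative that could be run, and was not kept when genes with a mean under 50 counts were left out. It was -2.37 (log2) when the most abundant isoform alone was counted and -2.38 without transcripts seen in at most 2 libraries. Since the fall of CST3 in these same libraries chose the set, these refits describe the fall and add no support for it. Counts of genes called lower and higher were 242 and 179. They were 164 and 147 under DESeq2, which gave no adjusted p for 2652 genes, and 186 and 137 with the replicate block. With 1 library left out they were 107 to 190 and 77 to 168, lowest without shPTBP1 replicate 3. limma-trend on log2(CPM + 1) called 272 lower and 129 higher, so that 67.8% of calls were lower where edgeR gave 57.5%.

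Of the lysosomal lists, membrane and proton pump genes called lower (2) were 0 under DESeq2 and without the filter, and 1 with the replicate block. Other enzymes called higher (1) were 0 under limma-trend with either pseudocount. Other cystatins and cathepsins called higher (1) were 2 with the replicate block. With 1 library left out, lower and higher calls were 0 to 0 and 1 to 2 for other cystatins and cathepsins, 2 to 3 and 0 to 1 for other enzymes, 0 to 1 and 0 to 2 for membrane and proton pump, and 0 to 0 and 0 to 1 for sorting and biogenesis. Isoforms called (61) were 28 at a change of 20 points, 155 with limma's diffSplice, and 42 to 54 with 1 library left out. Those of members stayed at 0.

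The direction reversed only for differences near 0. The log2 fold change of CTSS was 0.0040 under limma-voom and 0.00075 without the filter. With 1 library left out it ran from -0.049 to 0.11, and that of CTSA from -0.081 to 0.066. Differences in share ran from -2.33 to 1.30 points for CTSA-220, -0.27 to 2.13 for CTSH-202 and -1.34 to 2.50 for CTSS-206. The cause of these changes was not tested. At 1 count per 0.62 to 0.654 CPM, differences in CTSZ and LGMN were not detectable.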
